A study of Drosophila melanogaster with 3 samples.

Results

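The small heat shock genes of the 67B cluster, together with Hsp83 and Hsf, were followed in a chromatin immunoprecipitation and sequencing (ChIP-seq) experiment on the Drosophila nuclear receptor Hr3, also named Hr46. Of the 8 genes, Hsp22, Hsp23, Hsp26, Hsp27, Hsp67Ba and Hsp67Bc encode or are named as small heat shock proteins. These lie in the 67B cluster, with some other genes between them. The remaining genes are Hsp83, which encodes the fly Hsp90, and Hsf, which encodes the heat shock transcription factor. All 8 genes were chosen by name out of 13945 protein-coding genes. A peak was assigned to a gene when its summit, the position of highest signal, lay inside the gene or within 2 kb of either end. The sample was a fly line carrying a transgene for Hr3 with GFP at its C terminus, and chromatin of whole embryos of 0 to 24 h, of both sexes pooled, was precipitated with an antibody to GFP in 3 biological replicates that form 1 group. The authors deposited relaxed peak lists, which keep weak peaks, of each replicate and of the pooled replicates, and a reproducible list of 5357 peaks. There was no second condition, so no comparison of conditions was possible, and binding was measured but not RNA, so the response of the genes to ecdysone in these embryos is not seen here.

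Small heat shock proteins hold unfolding proteins in a soluble state without using ATP, and Hsp83 matures client proteins such as steroid receptors and kinases in an ATP-driven cycle. After heat stress, Hsf forms trimers that bind heat shock elements, arrays of inverted GAA units, and releases paused RNA polymerase at these genes. Several small heat shock genes are also switched on in development without heat, when the steroid hormone ecdysone rises, and the upstream region of Hsp27 holds a classical ecdysone response element bound by the ecdysone receptor. Hr3 is an orphan receptor related to vertebrate ROR, is itself induced by ecdysone, and binds as a monomer to a site named the ROR response element.

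The stretches below, from the reference genome, Release 6 (dm6), chromosome arm 3L, hold the summits of the strongest promoter peaks of the 67B cluster, the contrasting promoter of Hsp23, and the elements searched for. Each runs 5′ to 3′ on the strand of its gene. Capitals mark heat shock elements, read here as GAA, any 2 bases, TTC, any 2 bases, GAA or the reverse complement with at most 1 mismatch in the fixed bases, except where another element is named. The Hsp27 stretch is 3L:9383703-9384002, plus strand, from 360 to 61 bp before the transcription start site (TSS). The second Hsp27 stretch is 3L:9383493-9383552, plus strand, and its capitals mark a match with 1 mismatch to the ecdysone response element. The Hsp26 stretch is 3L:9377458-9377757, minus strand, from 330 to 31 bp before the outer of the annotated TSSs. The Hsp23 stretch is 3L:9381462-9381761, plus strand, from 420 to 121 bp before its TSS.
Hsp27 upstream: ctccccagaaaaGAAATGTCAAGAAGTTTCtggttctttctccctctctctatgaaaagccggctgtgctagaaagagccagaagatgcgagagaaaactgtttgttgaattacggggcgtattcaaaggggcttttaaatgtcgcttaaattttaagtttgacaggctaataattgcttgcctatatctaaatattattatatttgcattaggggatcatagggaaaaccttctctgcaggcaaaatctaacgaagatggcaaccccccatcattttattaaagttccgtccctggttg
Hsp27 ecdysone element: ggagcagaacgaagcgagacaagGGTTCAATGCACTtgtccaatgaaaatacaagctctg
Hsp26 upstream: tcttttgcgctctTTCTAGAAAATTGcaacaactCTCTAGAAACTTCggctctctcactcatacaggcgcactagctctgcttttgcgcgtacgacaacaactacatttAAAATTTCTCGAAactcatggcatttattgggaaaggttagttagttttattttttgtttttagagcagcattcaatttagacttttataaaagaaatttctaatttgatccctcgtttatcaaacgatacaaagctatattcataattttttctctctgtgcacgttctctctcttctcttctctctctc
Hsp23 upstream: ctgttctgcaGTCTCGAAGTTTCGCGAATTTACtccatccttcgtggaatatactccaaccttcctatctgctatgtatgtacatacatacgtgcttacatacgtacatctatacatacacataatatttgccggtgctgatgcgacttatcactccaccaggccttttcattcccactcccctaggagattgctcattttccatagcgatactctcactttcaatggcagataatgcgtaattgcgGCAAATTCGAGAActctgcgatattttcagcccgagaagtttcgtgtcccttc

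Hsp83 is shown by 3 stretches of 3L, plus strand, because it holds a peak at its TSS and another in its intron. The first, 3L:3192719-3192968, ends 1 bp before the outer TSS, and its capitals mark the DNA replication-related element (DRE) TATCGATA. The second, 3L:3193138-3193165, lies inside the TSS peak and is a run of overlapping heat shock elements. The third, 3L:3194235-3194335, is centred on the summit of the intron peak and holds none of the elements that capitals mark.
Hsp83 upstream: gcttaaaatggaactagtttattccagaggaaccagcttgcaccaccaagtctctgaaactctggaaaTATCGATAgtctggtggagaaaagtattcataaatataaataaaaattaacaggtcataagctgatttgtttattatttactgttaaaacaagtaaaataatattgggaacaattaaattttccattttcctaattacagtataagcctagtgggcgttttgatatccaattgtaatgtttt
Hsp83 heat shock elements: GAAGCCTCTAGAAGTTTCTAGAGACTTC
Hsp83 intron summit: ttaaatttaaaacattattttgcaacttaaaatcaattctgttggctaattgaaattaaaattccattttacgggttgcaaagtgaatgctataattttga

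A reproducible summit lay within 2 kb of 7 of the 8 genes, all but Hsf, against 39.4% of all protein-coding genes (5496 of 13945). The windows of neighbouring genes overlap, and the 7 genes shared 6 summits. A reproducible summit within 500 bp of an own TSS, called a promoter summit here, was found for 4 of the 8, namely Hsp22, Hsp26, Hsp27 and Hsp83, against 23.9% of all protein-coding genes (3332 of 13945). Every one of the 8 genes had a relaxed summit within 2 kb in each of the 3 replicates, as did 64.1% of all protein-coding genes (8932 of 13945). The 8 genes had a median length of 1682.5 bp, with a range of 884 to 4332 bp, and all protein-coding genes had a median of 2166 bp. Of the 6 reproducible summits, 5 lay within 500 bp of the TSS of some gene and the remaining one lay in the Hsp83 intron. The pooled relaxed list held 12 summits near the 8 genes, these 6 and 6 weaker ones. Of the reproducible summits just outside the windows, the closest was 2091 bp beyond the end of Hsp83, at the TSS of gry, and the others were 4169 and 4383 bp beyond Hsp67Bc and 4373 bp beyond Hsf.

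The signal of a peak is the authors' value from peak calling, and its scale differs between replicates. The median signal over the 5257 reproducible peaks with a value in all 3 replicates was 40.3 in replicate 1, 81.3 in replicate 2 and 68.6 in replicate 3, so each replicate was divided by its own median, which gives the relative signal used below, with 1 as the median peak. Read depth is not given by peak lists and is unknown here. A control library was not analysed here, so signal that would arise at these promoters without the tagged protein was not separated from the rest.

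The 67B cluster, taken as 3L:9369511-9387694 with 2 kb on either side of its outermost members, spans 18.2 kb and 14 annotated genes, 11 of them protein-coding. It held 4 reproducible summits, 2.20 per 10 kb, against 0.400 per 10 kb over all chromosome arms. The value for the arms takes in all sequence and was not matched for gene density. Set against genes, the region had 4 summits for 11 protein-coding genes, beside 5357 summits for 13945 over all arms. From low to high coordinates the summits lay at the promoters of Fdx1, Hsp22, Hsp26 and Hsp27, with spacings of 2476, 4009 and 6353 bp. Fdx1 encodes a ferredoxin, an iron-sulfur electron carrier, and is no heat shock gene. No reproducible summit lay within 500 bp of the TSS of Hsp67Bc, Hsp67Ba or Hsp23. The remaining genes of the region are CG4452, CG4456, which was formerly named Hsp67Bb and overlaps Hsp22, CG4461, the antisense RNA CR43481, the pseudogenes CR43483 and CR43482, and CG4080.

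**Figure D1:**
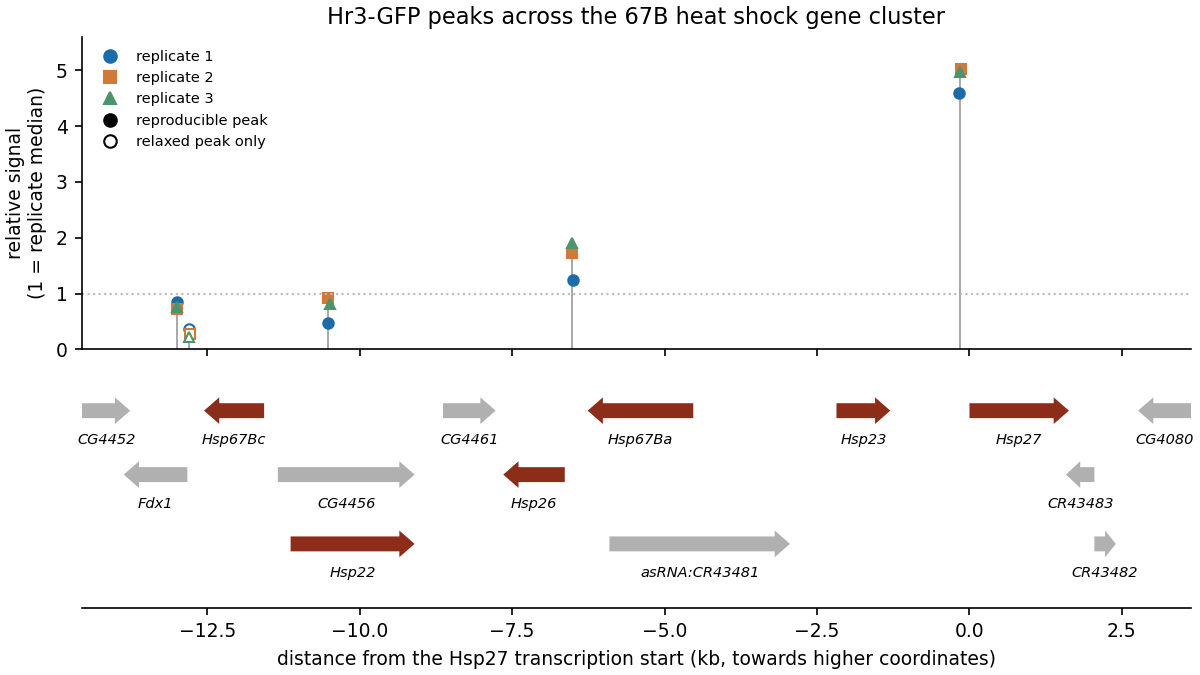
Relative signal of each replicate (vertical axis, 1 is the replicate's median peak) at summits of the pooled list across the 67B cluster, against distance from the Hsp27 TSS in kb, with gene arrows below in dark red for the 6 member genes and grey for others. Filled symbols are reproducible peaks and open symbols a relaxed peak; the Hsp27 promoter stands at 4.60 to 5.02, and the peaks at Hsp22 and Fdx1 lie below 1 in every replicate.

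Hsp27, whose protein protects cells from heat and in flies is also found in the nucleus, had the strongest peak of the set. The peak, 3L:9383734-9384089, has its summit 158 bp upstream of the only annotated Hsp27 TSS, in sequence between genes, within the first stretch printed above. Its signal was 185.6 in replicate 1, 408.4 in replicate 2 and 340.3 in replicate 3. As relative signal these were 4.60, 5.02 and 4.96, so that all replicates placed it between 4 and 6 times their median peak. The mean was 4.86 ± 0.228 (SD, n = 3), and it ranked 117th, 101st and 103rd in the replicate lists and 110th in the pooled list. Of the 5257 reproducible peaks with a value in all replicates, 2.04% had a higher mean relative signal. The coefficient of variation over the replicates was 4.70%, against a median of 16% over all reproducible peaks. The replicates' own summits lay 167, 144 and 152 bp upstream of the TSS.

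The same Hsp27 peak is the reason that Hsp23 was counted among the genes with a summit within 2 kb. It lies 2023 bp downstream of the Hsp23 TSS and 1140 bp beyond the end of Hsp23, another ecdysone-responsive small heat shock gene. Hsp23 had no other summit within 2 kb in the pooled list or in the list of any replicate. At 1 kb it was no longer counted, and 6 of the 8 genes remained.

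Hsp26, a small heat shock gene that is also expressed in the female germ line, had the second strongest peak of the cluster. Its peak, 3L:9377476-9377643, has its summit 125 bp upstream of the outer Hsp26 TSS and 177 bp upstream of the inner one, between genes. Its signal was 50.4 in replicate 1, 139.7 in replicate 2 and 130.1 in replicate 3, or 1.25, 1.72 and 1.90 as relative signal. All replicates were above their median peak, with replicate 1 the lowest. The mean was 1.62 ± 0.334 (SD, n = 3), and the peak ranked 1074th in the pooled list. The Hsp27 peak exceeded it by 3.68, 2.92 and 2.62 times in replicates 1, 2 and 3, a mean ratio of 3.07 ± 0.547 (SD, n = 3). Hsp67Ba was counted through this peak alone. The summit lies 250 bp beyond the 3′ end of Hsp67Ba and 1982 bp downstream of its TSS. The list of replicate 2 held a further weak summit 346 bp upstream of the outer Hsp26 TSS, at a relative signal of 0.168.

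Hsp22, whose protein works in the mitochondrial matrix, had a reproducible peak below the median, as did Fdx1 beside it. The peak, 3L:9373313-9373772, has its summit 454 bp upstream of the inner Hsp22 TSS and 612 bp downstream of the outer one, which Hsp22 shares with CG4456. The annotation places the summit in the 5′ UTR of the longer Hsp22 transcript and in the 3′ UTR of CG4456. Its signal was 19.4 in replicate 1, 75.1 in replicate 2 and 56.0 in replicate 3, or 0.481, 0.924 and 0.816 as relative signal. All replicates were below their median peak, and replicate 1 was far below the other two. The mean was 0.740 ± 0.231 (SD, n = 3). In replicate 1 the peak ranked 7329th and so was not among the 5357 strongest, as was true of 15.9% of reproducible peaks in that replicate. Its −log10 q was 1.41 in replicate 1, against 4.06 in replicate 2 and 3.98 in replicate 3.

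The Fdx1 peak, 3L:9370837-9371296, was close to the Hsp22 peak in strength and steadier between replicates. Its summit lies 9 bp upstream of the inner Fdx1 TSS and inside an intron of the longer form. Its relative signal was 0.857, 0.730 and 0.766 in replicates 1, 2 and 3, with a mean of 0.784 ± 0.0654 (SD, n = 3), which overlaps the range at Hsp22. A weaker relaxed peak stood 30 bp upstream of the outer Fdx1 TSS, at 0.361, 0.274 and 0.218. Hsp67Bc, a small heat shock gene whose product acts in protein quality control through autophagy, owes its count to this peak and to that of Hsp22. The Fdx1 summit lies 444 bp beyond the 3′ end of Hsp67Bc, and the Hsp22 summit 1046 bp upstream of its TSS.

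Hsp83 carried 2 reproducible peaks, and the one inside the gene was the stronger. The TSS peak, 3L:3193032-3193212, has its summit in the 5′ UTR of the longer transcript, 119 bp downstream of the outer TSS and 128 bp upstream of the inner TSS. Its signal was 68.6, 109.1 and 95.4 in replicates 1, 2 and 3, or 1.70, 1.34 and 1.39 as relative signal, with replicate 1 the highest. The mean was 1.48 ± 0.195 (SD, n = 3) and the pooled rank 1472. The intron peak, 3L:3194163-3194400, has its summit 1069 bp downstream of the inner TSS. Its signal was 89.6, 204.8 and 153.2, or 2.22, 2.52 and 2.23 as relative signal, above the TSS peak in every replicate. The mean was 2.32 ± 0.169 (SD, n = 3) and the pooled rank 596. The ratio of intron to TSS peak was 1.31, 1.88 and 1.61, a mean of 1.60 ± 0.286 (SD, n = 3). The summits are 1197 bp apart. Toward the 3′ end of Hsp83 the pooled relaxed list held 2 weak summits nearest to CG14966, one seen in replicate 2 alone at a relative signal of 0.217 and the other in replicates 1 and 2 at 0.304 and 0.25. A further summit at the CG14966 promoter, in the list of replicate 2 alone, had 0.381.

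**Figure D2:**
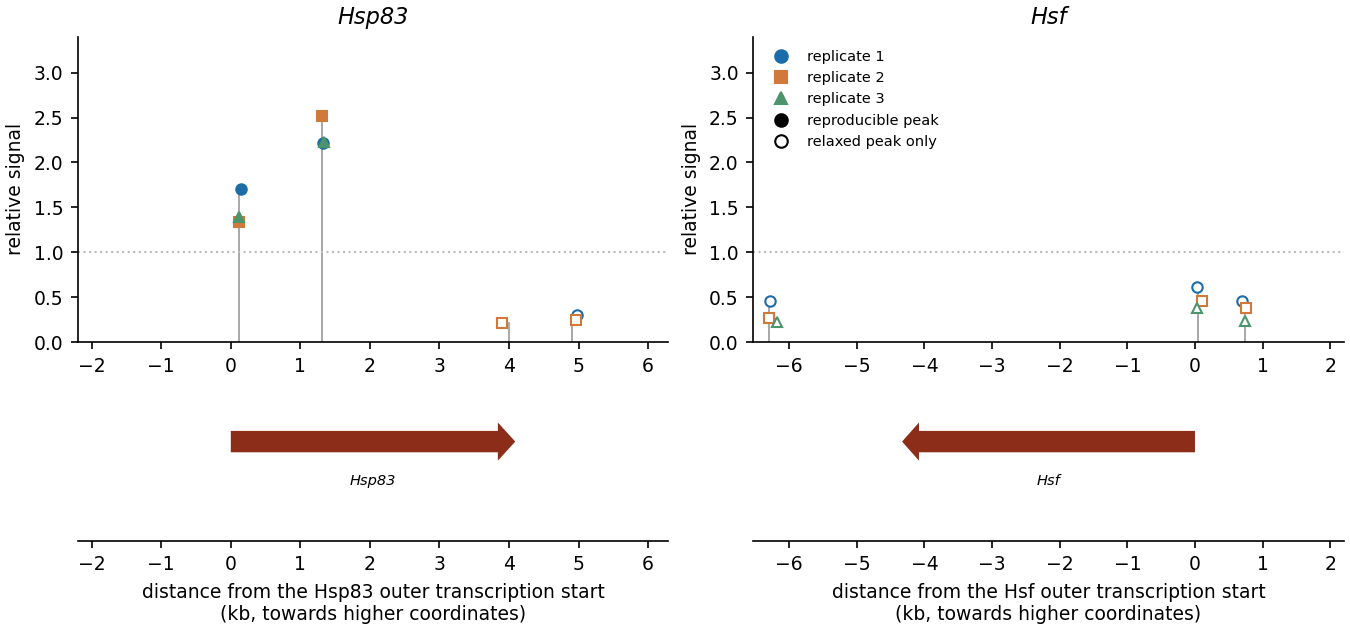
Relative signal per replicate (vertical axis) at summits of the pooled list within 2 kb of Hsp83, left, and Hsf, right, against distance in kb from the outer TSS of each gene, with the gene as an arrow. Hsp83 carries filled, reproducible peaks at its TSS and in its intron, with means of 1.48 and 2.32, while Hsf has open symbols alone, all below 1.

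Hsf, at 2R:18130303-18134634 on the minus strand, was the gene without a reproducible summit within 2 kb. The closest reproducible summit to its TSS lay 7217 bp away. A relaxed peak was present at its promoter in every replicate, with the pooled summit 42 bp upstream of the TSS. Its signal was 24.8, 37.0 and 26.1 in replicates 1, 2 and 3, or 0.616, 0.455 and 0.381 as relative signal. Replicates 2 and 3 were below every reproducible peak of the set, and replicate 1 was above the Hsp22 peak alone. The mean was 0.484 ± 0.120 (SD, n = 3), and its pooled rank of 7592 is beyond the length of the reproducible list. Both other summits of the pooled relaxed list within 2 kb of Hsf were nearest to other genes, 55 bp upstream of the TSS of Pcl, which encodes a Polycomb-group protein, and 159 bp upstream of that of Dlip3. They averaged 0.357 ± 0.112 and 0.314 ± 0.123 (SD, n = 3 each). The list of replicate 2 held a further summit inside Hsf, 1340 bp downstream of its TSS, at a relative signal of 0.188.

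**Figure D3:**
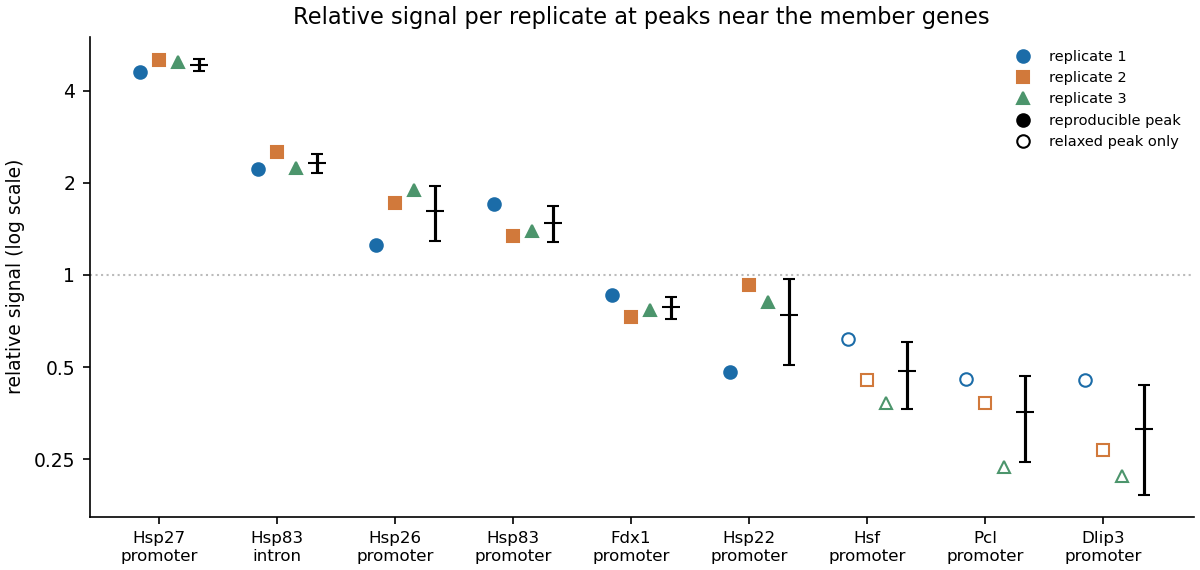
Relative signal (vertical axis, log scale) of each replicate at the 6 reproducible peaks near the 8 genes and at the 3 pooled relaxed peaks near Hsf, with mean and SD in black (n = 3). Peaks run from Hsp27 with a mean of 4.86 down to Dlip3 with 0.314, and the replicates of the Hsp27 peak overlap with those of no other peak.

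In order of mean relative signal the reproducible peaks were Hsp27, the Hsp83 intron, Hsp26, the Hsp83 TSS, Fdx1 and Hsp22. Ranges of the replicates overlapped between Hsp26 and the Hsp83 TSS and between Fdx1 and Hsp22, so that the order within these pairs is not settled by the replicates. Between the other neighbours in the order the ranges were apart. The share of the 5257 peaks with a value in all replicates that had a higher mean was 11.3% for the Hsp83 intron, 23.3% for Hsp26, 27.1% for the Hsp83 TSS, 67.8% for Fdx1 and 72.6% for Hsp22. The coefficient of variation was lowest at Hsp27 and highest at Hsp22, where it was 31.2%.

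**Figure D4:**
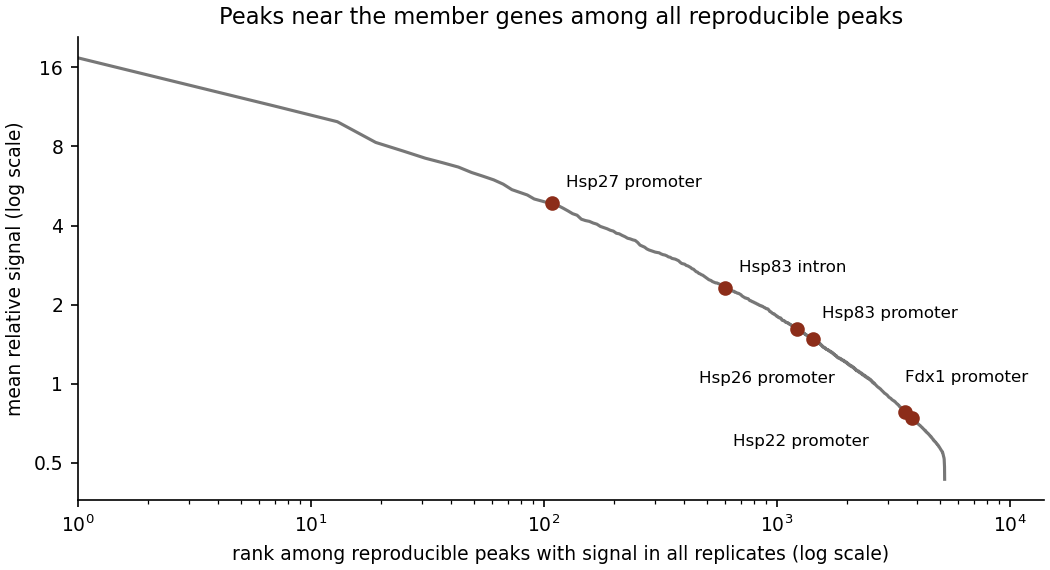
Mean relative signal (vertical axis, log scale) of the 5257 reproducible peaks with a value in all replicates, ordered by rank (horizontal axis, log scale), as a grey line, with the 6 peaks near the 8 genes as points. Hsp27 is at rank 108, the Hsp83 and Hsp26 peaks between ranks 597 and 1425, and Fdx1 and Hsp22 at 3567 and 3815.

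The sequences printed above were set against these summits. No heat shock element without mismatch lay between 250 bp before and 50 bp after a TSS of any of the 8 genes, a window in which 0.421% of 19253 promoters hold one. With 1 mismatch allowed, 4 of the 8 genes held one in that window, Hsp22, Hsp23, Hsp26 and Hsp83, against 8.20% of promoters. Hsp22, Hsp26 and Hsp83 have 2 annotated TSSs and so 2 windows each. The shares of promoters, here and below, count each TSS by itself. The match without mismatch that lay farther out was at Hsp23, 405 to 393 bp before its TSS, the promoter with no summit. In the 1 kb before a TSS, 1 of the 8 genes held a match without mismatch, against 1.33% of all such windows. With 1 mismatch allowed, 6 of the 8 genes held one there, against 24.6%. The Hsp27 summit lay 179 bp from the centre of the nearest match, and that of Hsp22 lay 373 bp from the centre of its match. The Hsp26 summit lay in the gap between 2 groups of matches, with the nearest centre 90 bp away on the far side and 124 bp away on the TSS side. At Hsp83 the nearest match of the 28 bp run was centred 56 bp from the summit. Over all reproducible peaks, 6.07% held such a match within 100 bp of the summit, as did 2 of the 6 here, Hsp26 and the Hsp83 TSS. A match is a description of the letters and was not tested as a binding site.

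**Figure D5:**
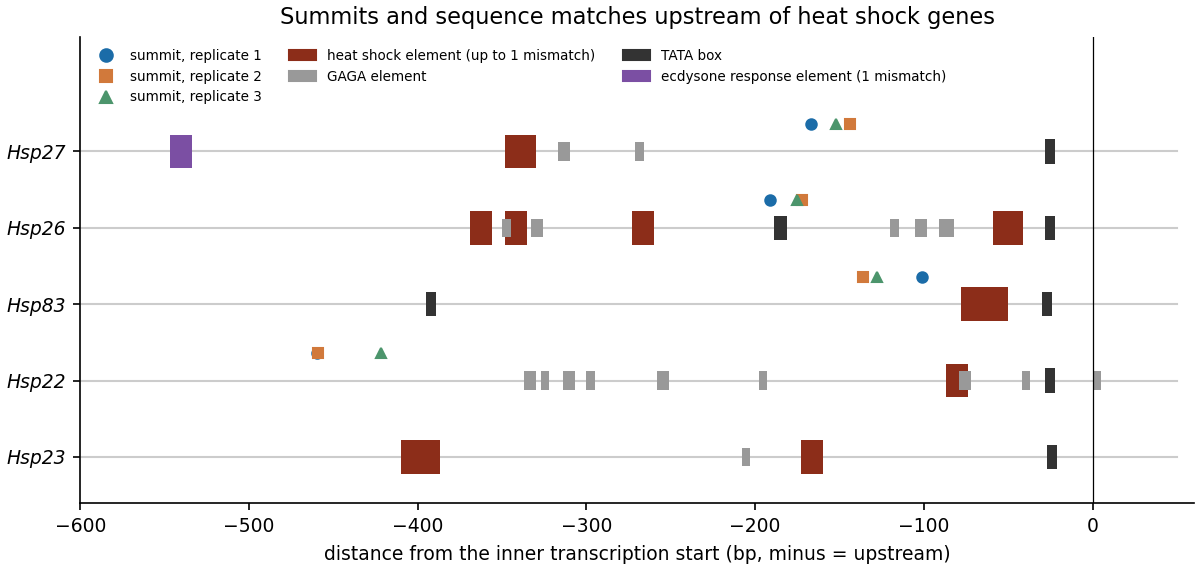
Summits of each replicate (symbols above the lines) and sequence matches (blocks) upstream of 5 heat shock genes, against distance in bp from the inner TSS, where minus is upstream. The Hsp83 summits lie within 100 bp of the heat shock elements, the Hsp27 summits are nearer to the TSS than its elements, and Hsp23 has elements and no summit.

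The TATA box, TATAAA, stood 27 to 30 bp before a TSS on the strand of the gene in 6 of the 8 genes, Hsp22, Hsp23, Hsp26, Hsp27, Hsp67Bc and Hsp83, and not in Hsp67Ba or Hsf. Between 35 and 20 bp before the TSS this motif started in 6.22% of all 19253 promoters. It did so in 1.84% of the 4120 TSSs with a reproducible summit within 500 bp and in 7.41% of the 15133 others. Promoters with this motif, such as those of Hsp22, Hsp26, Hsp27 and Hsp83, were thus a smaller share of the TSSs with a summit than of the others. The GAGA element GAGAG, bound by the GAGA factor at many heat shock promoters, was in the TSS window of Hsp22, Hsp23 and Hsp26, against 33.1% of promoters. The DRE lay 182 to 175 bp before the outer TSS of Hsp83 and in no TSS window of the other genes, against 7.98% of promoters.

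The ROR response element without mismatch was in no TSS window of the 8 genes and within 100 bp of none of the 6 summits, against 0.769% of promoters and 1.29% of reproducible summits. With 1 mismatch it was in the TSS window of 2 of the 8 genes, Hsf and Hsp22, against 16.1% of promoters. The Hsf matches lay 110 to 101 bp before its TSS and 14 to 23 bp after it, both under its relaxed promoter peak. That of Hsp22 lay 42 to 33 bp before its outer TSS. With 1 mismatch the element also lay within 100 bp of the Hsp83 intron summit and of none of the other 5, against 14.3% of all reproducible summits. The ecdysone response element without mismatch was in no TSS window either, against 0.0623% of promoters. With 1 mismatch it lay 547 to 535 bp before the Hsp27 TSS, in the second stretch printed for Hsp27, its centre 383 bp from the Hsp27 summit. Another lay 569 to 557 bp before the outer TSS of Hsp22, inside the Hsp67Bc gene. Of all windows of 1 kb before a TSS, 2.64% held such a match. The GC content within 100 bp of the summit was 37.8% at Hsp27, 29.9% at Hsp26, 27.9% at Hsp22, 45.3% at the Hsp83 TSS and 28.9% in the Hsp83 intron, and the median over all reproducible summits was 33.3%.

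Other heat shock and chaperone genes were taken from a list of 36 genes. A reproducible summit lay within 2 kb of 15 of them, or 41.7%, close to the 39.4% of all protein-coding genes, and 10 of them, or 27.8%, had a promoter summit, against 23.9%. A non-coding RNA gene on the list is part of both counts, whereas the background holds protein-coding genes alone. CG4461 and CG4456 were counted through the peaks of the 67B cluster already described. The strongest peak was at mrj, which encodes an Hsp40 co-chaperone, with a mean relative signal of 5.0 ± 0.207 (SD, n = 3), beside the 4.86 of Hsp27. It was followed by Hsc70-5, the mitochondrial Hsp70, at 2.95 ± 0.432, and by Stip1, the co-chaperone that links Hsp70 to Hsp90, at 2.84 ± 0.510, although that summit is nearest to the TSS of Pi3K21B (SD, n = 3 each). Tpr2, an Hsp40-type co-chaperone, had 2.55 ± 0.144, and stv, a BAG-domain partner of Hsp70, had 2.23 ± 0.0232 (SD, n = 3 each). None of the 6 heat-inducible Hsp70 genes had a summit within 2 kb, in the reproducible or in the pooled relaxed list. These genes are near-identical copies, and the part that ambiguous reads have in this was not tested.

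The peaks most like that of Hsp27 in the 3 replicates were those of Gug, arg and elav, by the root mean square difference of log2 relative signal. Gug, which encodes the corepressor Atrophin, differed by 0.0305, with relative signals of 4.72, 5.14 and 4.89 at a summit 7688 bp downstream of its nearest TSS. elav, which encodes a neuronal RNA-binding protein, and its neighbour arg share 1 peak, 227 bp upstream of the elav TSS, which differed by 0.0461. Peaks of like strength are numerous, and the likeness is of 3 values alone.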

How the data were processed

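Peaks of GFP-tagged Hr3 were analysed in 3 biological replicates of whole embryos, per the labels. The labels give sonicated fragments of 200 to 800 bp. Which aligner, caller and irreproducible discovery rate cutoff the authors used is not given in the sources used here. The signal value and the −log10 q of each peak are the authors' deposited values; the q reaches a shared maximum, so peaks were ranked by signal. Coordinates are 1-based on dm6, and genes are those of Ensembl release 115 (BDGP 6.54). The dm3 lists were not used here.

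A reproducible summit took, in each replicate, the strongest relaxed peak that holds it; a weaker pooled summit took the peak with the closest summit. Elements were searched on both strands. Of 43 names listed as heat shock or chaperone genes, 6 matched no gene under that name. Members and lists were chosen with earlier results of these data known, and the position window of the TATA box and the 1-mismatch searches were added after the matches were seen. Named genes are the 8 members, the genes of the cluster, those nearest to a peak, the 5 chaperone genes with the strongest peaks and the 3 most like Hsp27. No test between samples was made. Counting was checked on simulated data. Python 3.11.15, NumPy 2.4.6, pandas 2.3.3 and matplotlib 3.10.9 were used.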

Additional observations from a re-analysis of the deposited data

How the results depend on the processing

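Of 78 alternatives tried, 10 moved a count by over 1.5 times or a relative signal by more than 1 SD of the replicates, and 68 did not. A count of 6 that becomes 4 is still within that limit. Part of the 68 could not have moved. With 3 values, leaving 1 out always shifts a mean by less than 1 SD. The 8 genes with a relaxed summit in every replicate could not become fewer when a replicate was left out. The 6 reproducible summits near the 8 genes became 10 with a window of 5 kb and 12 in the pooled relaxed list. The 4 summits of the 67B cluster became 2, those of Hsp26 and Hsp27, in the stronger part of the reproducible list, which holds the upper 50% by signal, while the genes with a summit within 2 kb became 5. The 15 chaperone genes became 27 in the pooled relaxed list. Shares of all protein-coding genes in these alternative lists are not given here, so the counts of 5 and 27 have no background beside them. A relaxed summit within 2 kb in every replicate was found for 64.1% of all protein-coding genes. With replicates left out in turn, the genes with a summit within 2 kb stayed at 7, the summits near them ranged from 5 to 6, the genes with a promoter summit from 3 to 4, the genes with a relaxed summit in each remaining replicate stayed at 8, the cluster summits ranged from 3 to 4 and the chaperone genes from 13 to 15. For the summits, the promoter genes and the cluster, the lower values come without replicate 2 or 3, when a peak must be among the strongest of replicate 1, and the Hsp22 peak is not. Without replicate 1 the mean at Hsp22 was 0.870, against 0.740 with all. With a promoter limit of 200 bp in place of 500 bp, 3 genes had a promoter summit. Hsp22, whose summit lies 454 bp from its inner TSS, was then not among them. Dividing by the median of all relaxed peaks scaled all 6 relative signals up, from 2.60 at Hsp22 to 16.7 at Hsp27, with the order kept. These are 6 of the 10 alternatives that moved, and they follow from the change of scale. Files of peaks hold no read depth, so counting error is unknown.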
